A study of Mus musculus with 242 samples.

Results

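Tetrafluoroethylene and tetrafluororethane (the spelling of the labels, taken here as tetrafluoroethane) are fluorinated gases with a backbone of a pair of carbons. They were chosen by the treatment entry of the labels, which gives 4 arrays of each, 8 of the 242 arrays of the series. Both gases were compared with the same 4 air control arrays, titled ACO1, of the same run of 36 arrays in 9 groups. Each array held liver RNA of 1 female B6C3F1 mouse, a hybrid strain used in carcinogenicity bioassays. Tetrafluoroethylene was inhaled at 1250 ppm and tetrafluororethane at 50000 ppm, and the controls were labelled 0 ppm or, for 1 array, carried no dose. All 3 groups were exposed for 13 weeks, 6 hours a day on 5 days a week, and the mice were 18 weeks old at harvest. The right, caudate and median lobes were minced together, so a difference between lobes cannot be seen. The labels do not say which isomer of tetrafluoroethane was used, and nothing was measured at a second dose of either gas.

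Tetrafluoroethylene has a double bond between its carbons and no hydrogen, and is the monomer of a non-stick polymer. Liver glutathione transferases join it to glutathione, the cell's main thiol. The product passes through the mercapturate pathway, in which peptidases trim it to a cysteine conjugate that N-acetylation detoxifies and that cysteine conjugate beta-lyases, such as the enzyme encoded by Kyat1, cleave to reactive fragments, mainly in kidney. Tetrafluoroethane is saturated and carries hydrogens, and an isomer of it is used as a refrigerant and inhaler propellant. That isomer is metabolised little, and by oxidation, for which the ethanol-inducible cytochrome P450 Cyp2e1 is the known enzyme. Whether it was the isomer given here is not stated in the labels. The doses were not matched, so 0 pairs of the gases were compared: their values stand side by side, each against air.

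The control arrays did not form a tight set, and this touches every value below. In air control replicate 4, 29.7% of probe sets lay at least 2-fold from the median of the other 3 controls, and in replicate 3 this share was 25.3%, against 15.6% and 16.1% in replicates 1 and 2. Among the 8 treated arrays the same share was 14.7% to 19.7%. Replicate 4 correlated with the other controls at 0.857 to 0.905, and was closest to tetrafluoroethylene replicate 2 (Pearson's r = 0.963 over probe sets, which are not independent). On the first principal component of the 12 arrays, which held 38.7% of the variance, these 2 arrays scored -97.9 and -86.8, apart from the others at -26.3 to 54.6. Replicate 3 stood apart on the second component, with a score of -75.8. The labels of replicates 3 and 4 carry the same animal number, 341, although their titles differ (340 and 341), and no pair of the 12 arrays held identical values. Replicates 3 and 4 correlated at 0.857, the lowest r of any pair of the 12 arrays. Whether these arrays came from the same mouse cannot be told from the labels and was not tested, so the 4 air arrays may hold fewer than 4 mice. The labels' od260 entry, an absorbance reading of the RNA extract, was 16.1 for replicate 4 and 2.62 to 4.39 for the other controls, against 8.02 to 10.7 with tetrafluoroethylene and 7.77 to 12.3 with tetrafluororethane. RNA integrity numbers, given for 10 of the 12 arrays, were 8.4 to 8.9. Air control replicates 2 and 4 had none, so the integrity of the RNA of replicate 4 is not known.

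**Figure D1:**
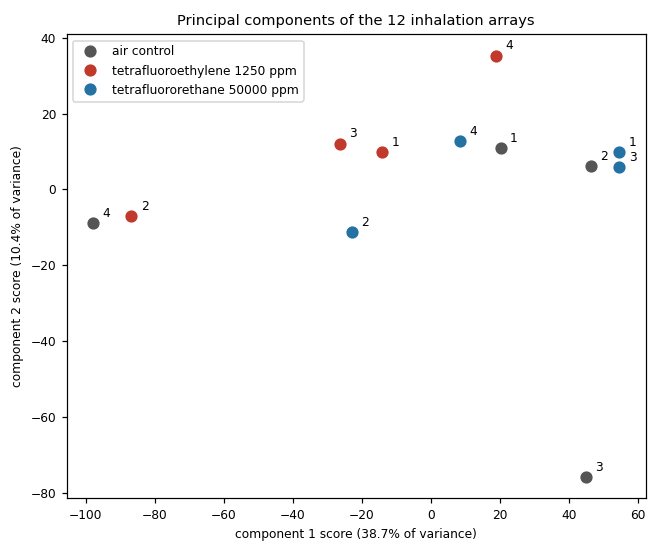
Scores of the 12 inhalation arrays on the first (x axis, 38.7% of variance) and second (y axis, 10.4% of variance) principal components, without units; each point is 1 array, coloured by group and numbered by replicate. Air control replicate 4 lies beside tetrafluoroethylene replicate 2 at the left, and air control replicate 3 lies alone at the bottom.

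With tetrafluoroethylene, 19 of 45037 probe sets passed the test (0.0422%), 17 of them higher (0.0377%) and 2 lower (0.00444%) than in air, a split that became 19 and 8 after quantile normalisation. The test was limma's, over all 36 arrays of the run on log2(signal + 15.2), two-sided, and a probe set passed at a Benjamini-Hochberg adjusted p under 0.05 and a fold of at least 1.5. At an unadjusted p under 0.05 9.63% of probe sets differed, 2392 higher (5.31%) and 1944 lower (4.32%). With tetrafluororethane, 4 passed (0.00888%), 2 higher (0.00444%) and 2 lower (0.00444%), and at an unadjusted p under 0.05 7.85% differed, 1048 higher (2.33%) and 2488 lower (5.52%), a split that became 1815 and 1832 after quantile normalisation. The 21 distinct probe sets carry 17 gene symbols and 4 have no single symbol. In all 19 and all 4, every treated array lay on one side of every air array, as it did in 2.67% and 2.32% of all probe sets. The SE printed with each difference pools the spread over all 9 groups, so it is not the spread of the arrays compared. Among the called probe sets the log2 SD of the air arrays ran from 0.08 (1423164_at) to 0.85 (Pitpnb). The SE with tetrafluoroethylene was 0.34 for 1423164_at and 0.26 for Pitpnb. The genes are described below by their textbook roles, grouped after their values were seen and with no test of any group.

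The called genes of the secretory pathway were Preb, Lman1 and Selenof. Preb encodes the exchange factor that starts COPII vesicle budding at the endoplasmic reticulum. Its signal in air replicates 1 to 4 was 4250, 2410, 2720 and 3460, with tetrafluoroethylene 7970, 5790, 5730 and 5580, and with tetrafluororethane 6010, 6500, 5940 and 7620. All 8 treated arrays were above all 4 air arrays, and also above the 8 chow and corn oil control arrays of the run, which reached 5050. The rise was 0.98 ± 0.18 (log2, SE, n = 4 and 4, limma adjusted p = 0.033) with tetrafluoroethylene and 1.05 ± 0.18 (adjusted p = 0.043) with tetrafluororethane. The probe set is of the _x_at kind, whose probes can match other transcripts, and the other 2 probe sets of Preb gave -0.00 and -0.19 with tetrafluoroethylene and 0.21 and -0.12 with tetrafluororethane, none of them past the test.

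Lman1 encodes the cargo receptor ERGIC-53, which carries glycoproteins such as clotting factors out of the endoplasmic reticulum. Its signal was 691, 629, 730 and 1650 in air and 2260, 2510, 2320 and 1880 with tetrafluoroethylene. Air replicate 4 lay near the treated arrays and the other 3 controls far below them. The rise was 1.37 ± 0.23 (limma adjusted p = 0.015, n = 4 and 4), of 5 probe sets 1 passed, and the next largest was 0.83. The chow and corn oil controls lay higher than either group, at 3230 to 4610. With tetrafluororethane the signal was 1010, 1740, 718 and 1060 and the difference from air 0.33 ± 0.23 (limma adjusted p = 0.78). Selenof, a selenoprotein of the endoplasmic reticulum, read 7360, 5760, 5050 and 9400 in air, 11800, 10700, 15200 and 16200 with tetrafluoroethylene and 5500, 8420, 4760 and 9690 with tetrafluororethane. All tetrafluoroethylene arrays exceeded all air arrays, by 0.99 ± 0.20 on the log2 scale (limma adjusted p = 0.05 after rounding, n = 4 and 4), while the tetrafluororethane arrays overlapped air (0.02 ± 0.20). Its second probe set gave 1.19 with tetrafluoroethylene and did not pass.

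Zfand5, Psmd5 and Ecpas serve the proteasome: Zfand5 is a zinc finger protein that binds ubiquitin and the proteasome, Psmd5 a chaperone of proteasome assembly and Ecpas (also Ecm29) a proteasome scaffold. The called probe set of Zfand5 was at 2.63, 18.9, 17.1 and 1.18 in air, near or under the pseudocount, and at 67.9, 103, 61.1 and 75.6 with tetrafluoroethylene. The groups lay well apart, and the rise was 1.93 ± 0.32 (limma adjusted p = 0.015, n = 4 and 4), understated by the pseudocount. The other 6 probe sets of Zfand5 gave -0.37 to 0.48, none past the test, and the tetrafluororethane arrays read 31.6, 35.8, 5.91 and 6.5 (0.44 ± 0.32). Psmd5 was at 1160, 825, 877 and 1840 in air, 2460, 2130, 2110 and 2290 with tetrafluoroethylene (1.00 ± 0.20, limma adjusted p = 0.047) and 1280, 1960, 1340 and 1430 with tetrafluororethane (0.40 ± 0.20, adjusted p = 0.64). Here too air replicate 4 was the control closest to the treated arrays.

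Ecpas was 1 of the 2 probe sets lower with tetrafluororethane. Its signal was 110, 142, 170 and 116 in air, 42.9, 52.5, 14 and 10.6 with tetrafluororethane, and 56.4, 116, 59.5 and 46 with tetrafluoroethylene. All 4 tetrafluororethane arrays were below air, by -1.84 ± 0.29 (limma adjusted p = 0.029, n = 4 and 4), and the tetrafluoroethylene arrays overlapped air in replicate 2 (-0.87 ± 0.29, adjusted p = 0.28). The 3 other Ecpas probe sets gave -0.63, -0.02 and 0.12 with tetrafluororethane, none past the test. The other lower probe set was of Ctbs, which encodes the lysosomal chitobiase that splits the core of glycoprotein sugar chains. It read 53.3, 48.5, 89.9 and 83.3 in air, 18, 6.83, 0.777 and 32.1 with tetrafluororethane and 48.6, 43.8, 61.4 and 78.9 with tetrafluoroethylene. The fall with tetrafluororethane was -1.59 ± 0.29 (limma adjusted p = 0.049), whereas the other 2 Ctbs probe sets gave -0.16 and 0.51 and did not pass.

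Srsf6, Lsm3 and Lactb2 act on RNA. Srsf6, a serine- and arginine-rich splicing factor, was at 1300, 989, 743 and 2310 in air, 3540, 3190, 3070 and 2660 with tetrafluoroethylene and 1260, 2600, 1240 and 1710 with tetrafluororethane. It was 1.33 ± 0.25 higher with tetrafluoroethylene (limma adjusted p = 0.037, n = 4 and 4), and its 3 other probe sets gave 0.42 to 1.14, each with an unadjusted p under 0.05 but none past the test. Lactb2, a mitochondrial RNA nuclease, was at 5190, 4750, 4190 and 6390 in air and 9800, 10100, 12500 and 10900 with tetrafluoroethylene (1.09 ± 0.18, limma adjusted p = 0.015), and its second probe set gave 0.80. Lsm3, a member of the ring bound to U6 snRNA, was the named gene that fell with tetrafluoroethylene, from 923, 995, 1070 and 798 in air to 526, 638, 541 and 456 (-0.79 ± 0.15, limma adjusted p = 0.037). In Lactb2 the tetrafluororethane arrays (4170 to 8540) and in Lsm3 those arrays (681 to 1180) overlapped air, with differences of 0.13 ± 0.18 and -0.07 ± 0.15.

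Pitpnb, Ywhab, Ptp4a2 and Cpped1 belong to lipid and phosphate signalling. Pitpnb moves phosphatidylinositol between membranes, Ywhab is a 14-3-3 adaptor that binds phosphorylated proteins, and Ptp4a2 and Cpped1 are phosphatases. Pitpnb was at 476, 310, 186 and 779 in air and 1080, 938, 992 and 1110 with tetrafluoroethylene (1.38 ± 0.26, limma adjusted p = 0.033). All 5 of its probe sets were higher at an unadjusted p under 0.05, by 0.40 to 1.73, of which this 1 passed. Ywhab was at 1590, 1490, 1510 and 3650 in air and 5320, 5000, 4340 and 4170 with tetrafluoroethylene (1.29 ± 0.24, limma adjusted p = 0.033), and 4 of its 6 probe sets had an unadjusted p under 0.05, while the other 2 gave 0.25 and -0.21. Ptp4a2 was at 1710, 1360, 2220 and 4430 in air and 5080, 6250, 4730 and 5290 with tetrafluoroethylene (1.27 ± 0.25, limma adjusted p = 0.047). Cpped1 was at 861, 700, 410 and 989 in air and 1670, 1660, 1430 and 1430 with tetrafluoroethylene (1.11 ± 0.21, limma adjusted p = 0.037). The 3 other probe sets of Ptp4a2 gave 0.49 to 1.06 and the second of Cpped1 0.72, none past the test. In all 4 genes air replicate 4 was the highest control and lay below the lowest tetrafluoroethylene array. With tetrafluororethane the differences of Pitpnb, Ywhab, Ptp4a2 and Cpped1 were 0.33, 0.29, 0.56 and 0.02, and none passed.

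Wdcp, which encodes a protein with WD repeats and a coiled coil, was called with both gases. Its signal was 44.6, 20.5, 27.8 and 86.5 in air, 152, 175, 119 and 193 with tetrafluoroethylene and 110, 142, 182 and 158 with tetrafluororethane. The 8 treated arrays were all above the 4 controls, by 1.64 ± 0.26 (limma adjusted p = 0.013) and 1.54 ± 0.26 (adjusted p = 0.037), and 3 of 4 arrays of each gas lay within the 126 to 207 of the chow and corn oil controls. Its second probe set gave 0.93 and 0.16 and did not pass. Wdcp and Preb were set against the same 4 air arrays for both gases, so their calls with the 2 gases are not independent. Cyp20a1, an orphan cytochrome P450 with no agreed substrate, was at 199, 136, 108 and 223 in air, 374, 377, 332 and 300 with tetrafluoroethylene (1.03 ± 0.18, limma adjusted p = 0.016) and 262, 170, 212 and 233 with tetrafluororethane (0.40 ± 0.18, adjusted p = 0.58). Its other 2 probe sets gave 0.50 and 0.39 with tetrafluoroethylene and did not pass. Vwa5a, a von Willebrand domain protein, was at 434, 439, 350 and 739 in air and 835, 1020, 1020 and 900 with tetrafluoroethylene (0.97 ± 0.17, limma adjusted p = 0.025), and its second probe set gave 0.62 and did not pass.

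The 4 probe sets without a single symbol were called with tetrafluoroethylene. Probe set 1454649_at had the lowest adjusted p of all and was at 1180, 1140, 729 and 886 in air, 2440, 2470, 2360 and 2710 with tetrafluoroethylene (1.35 ± 0.19, limma adjusted p = 0.0021) and 944, 1660, 1630 and 1240 with tetrafluororethane (0.46 ± 0.19, adjusted p = 0.55). Probe set 1423164_at was at 23.2, 25.7, 21.7 and 21.1 in air, 113, 122, 97.5 and 138 with tetrafluoroethylene (1.80 ± 0.34, limma adjusted p = 0.037) and 99.8, 81.5, 90.2 and 45.4 with tetrafluororethane (1.27 ± 0.34, adjusted p = 0.28). The 4 air arrays of 1423164_at lay below all other controls of the run (28 to 83.7) and the 4 tetrafluoroethylene arrays above them. The remaining pair were 1450033_a_at, higher by 0.94 (limma adjusted p = 0.033), and 1446168_at, lower by -2.04 ± 0.40 (adjusted p = 0.047).

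Against the 8 chow and corn oil control arrays of the run, whose mice were not in air chambers, the air arrays were more often outside the range than the tetrafluoroethylene arrays in the called probe sets, which were themselves chosen by the difference between those 2 groups. For 17 of the 19 probe sets called with tetrafluoroethylene the median air array lay outside the range of those 8, as it did in 35.5% of all probe sets, and for 14 no air array lay inside it (7.72% of all). The median tetrafluoroethylene array lay inside for 11 of the 19 (72.1% of all), and all 4 arrays did for 6 (26.5% of all; Srsf6, Pitpnb, Psmd5, Cpped1, 1454649_at and 1450033_a_at). Over all probe sets the air controls differed from the chow controls in 1128 higher and 2673 lower, by the same test, from the corn oil controls in 3434 higher and 6566 lower, and chow from corn oil controls in 1 higher and 2 lower. With the 4 chow controls in place of air, 10 probe sets passed with tetrafluoroethylene, all lower and none of the 19, and 11 of the 17 that were higher against air lay below chow, by -0.02 to -0.66. With tetrafluororethane 7020 passed, 1976 higher and 5044 lower, among them 3 of the 4, while Wdcp gave -0.16. Control set, housing and vehicle cannot be told apart in these differences.

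**Figure D2:**
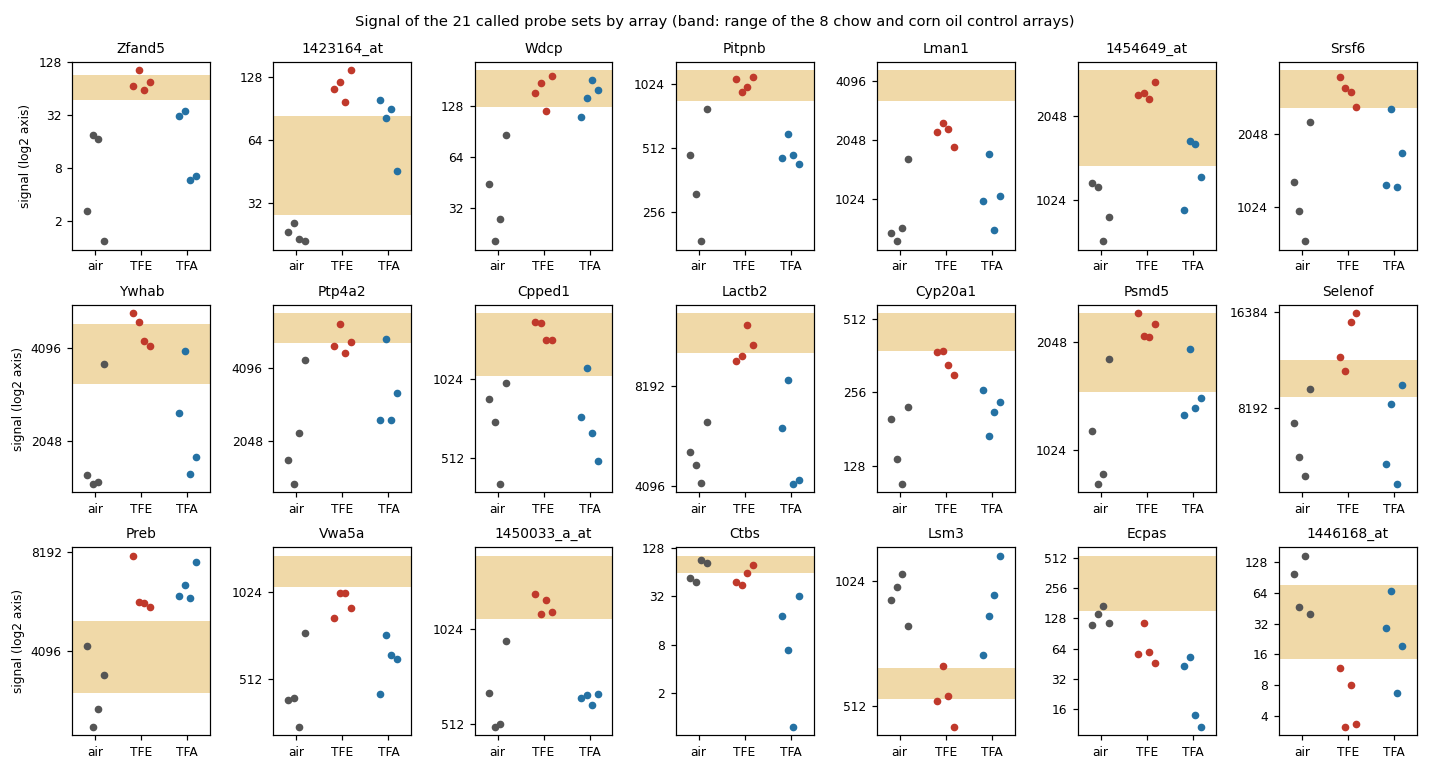
Signal (y axis, log2 scale, scaled intensity) of the 21 called probe sets in the air control, tetrafluoroethylene (TFE, 1250 ppm) and tetrafluororethane (TFA, 50000 ppm) arrays. Each point is 1 array, replicates 1 to 4 from left to right, and the band spans the 8 chow and corn oil control arrays. Every TFE point lies on one side of the air points except in Ctbs and Ecpas, which were called with TFA, and in most panels the air points lie outside the band.

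The number of calls moved with single arrays. Without air replicate 4, tetrafluoroethylene gave 1797 called probe sets (3.99%), 1454 higher and 343 lower, including all 19. Without air replicate 2 or 3, or tetrafluoroethylene replicate 1, 3 or 4, it gave 3 or 4 calls, without air replicate 1, 14 and without tetrafluoroethylene replicate 2, 23. Probe set 1454649_at passed in all 8 of these fits, Zfand5 in 7 (adjusted p = 0.055 without tetrafluoroethylene replicate 4) and Wdcp in 5. With tetrafluororethane the counts were 1 to 58, the highest without its replicate 2 (3 higher and 55 lower), 10 without air replicate 1 or 2, 11 without air replicate 4, 1 without air replicate 3 or its own replicate 4, and 2 without its own replicate 3. Ecpas passed in 5 of the 8 fits, Wdcp and Ctbs in 4 and Preb in 3. Fitted on only the 8 arrays compared, or on only the 12 inhalation arrays, neither gas had a call by limma, and in the 8-array fits 942 probe sets were higher and 1092 lower at an unadjusted p under 0.05 with tetrafluoroethylene, and 509 and 1297 with tetrafluororethane.

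**Figure D3:**
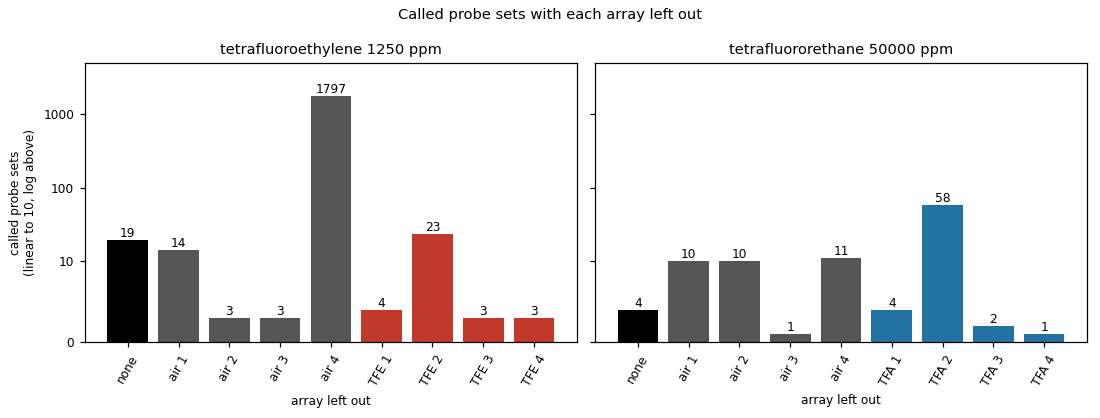
Number of called probe sets (y axis, linear to 10 and logarithmic above) with no array left out (black) and with each air control (grey) or treated array (coloured) left out in turn, for tetrafluoroethylene (left) and tetrafluororethane (right). Leaving out air control replicate 4 raised the tetrafluoroethylene count from 19 to 1797, and leaving out tetrafluororethane replicate 2 raised its count from 4 to 58.

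Genes of the metabolic routes described above did not pass the test in either comparison. Of 20 measured glutathione transferases, 0 passed with either gas, against 0.0422% and 0.00888% of all probe sets, and their median difference was -0.12 with tetrafluoroethylene and -0.07 with tetrafluororethane, beside -0.04 and -0.06 over all probe sets. At an unadjusted p under 0.05, 1 was lower with tetrafluoroethylene and 0 with tetrafluororethane. The counts at this threshold here and in the other lists are read beside the shares of all probe sets given above, 5.31% higher and 4.32% lower with tetrafluoroethylene and 2.33% and 5.52% with tetrafluororethane. Gstt1, the theta-class enzyme that handles small halogenated molecules, read 28800, 22800, 23400 and 19600 in air, 24400, 19500, 23400 and 25400 with tetrafluoroethylene, and 24800, 22500, 26200 and 24900 with tetrafluororethane. The 3 groups overlapped, and the 95% intervals of the log2 difference were -0.34 to 0.29 and -0.25 to 0.38. The intervals were similarly narrow for Gstz1 (zeta class, -0.32 to 0.26 and -0.25 to 0.33) and Gstm1 (mu class, -0.32 to 0.44 with either gas), and wider for Gsta2 (alpha class, -1.32 to 0.61 and -1.64 to 0.28) and Gstm3 (-0.77 to 0.97 and -1.27 to 0.47). The Gstm1 probe set is of the _x_at kind, whose probes can match other transcripts. Gstp1 (pi class) differed by 0.36 ± 0.19 and 0.27 ± 0.19.

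The lowest unadjusted p of the glutathione transferase list belonged to Mgst3, a microsomal enzyme that also reduces lipid peroxides. It read 8020, 6250, 5570 and 5130 in air, 3670, 1970, 4140 and 3930 with tetrafluoroethylene and 6880, 2850, 5500 and 4960 with tetrafluororethane. The tetrafluoroethylene arrays were all below air, by -0.90 ± 0.25, which did not pass (limma adjusted p = 0.17), and passed without air replicate 4 (-0.99, adjusted p = 0.031). The 8 chow and corn oil controls of the run lay at 1610 to 2940, below every air array.

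Of 20 measured mercapturate pathway genes 0 passed, with medians of -0.02 and -0.08, and 1 was higher with tetrafluoroethylene at an unadjusted p under 0.05. Kyat1, the beta-lyase named above, read 3070, 3000, 2280 and 1250 in air, 2550, 2800, 2320 and 3240 with tetrafluoroethylene and 3650, 2380, 2990 and 2380 with tetrafluororethane, with overlapping groups and differences of 0.26 ± 0.27 and 0.31 ± 0.27 (adjusted p = 0.82 and 0.84, limma). The Kyat1 probe set is also of the _x_at kind. Of 25 glutathione synthesis and NRF2 target genes, which the cell raises under electrophile stress, 0 passed, with medians of 0.01 and 0.06, and 3 were higher with tetrafluoroethylene at an unadjusted p under 0.05. Gclc, the rate-limiting enzyme of glutathione synthesis, differed by 0.49 ± 0.31 and 0.08 ± 0.31, and Nqo1, a quinone reductase, by -0.46 ± 0.31 and -0.18 ± 0.31. Ggt1, the peptidase that opens the mercapturate pathway, had no probe set with a single symbol and was not analysed here.

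Of 28 cytochrome P450 oxidation genes 0 passed, with medians of 0.16 and -0.12, and 4 were higher and 1 lower with tetrafluoroethylene at an unadjusted p under 0.05. Cyp2e1 read 74200, 51500, 70900 and 53100 in air, 60300, 82200, 59800 and 69000 with tetrafluoroethylene, and 57500, 51700, 60500 and 69300 with tetrafluororethane. The groups overlapped, and the 95% intervals were -0.32 to 0.58 and -0.50 to 0.40. Cyp3a11, a target of the xenobiotic receptor PXR, differed by 0.16 ± 0.22 and -0.15 ± 0.22, and Cyp4a14, a target of PPARalpha, by 0.12 ± 0.51 and 0.17 ± 0.51. Cyp1a1, the classic target of the aryl hydrocarbon receptor, read 176, 113, 249 and 200 in air, 248, 189, 258 and 136 with tetrafluoroethylene and 301, 273, 320 and 150 with tetrafluororethane. These groups overlapped and had log2 SDs of 0.44, 0.40 and 0.47. Its intervals, -2.24 to 2.58 and -1.95 to 2.87, were wide because the model pools the spread over all 9 groups of the run, in 2 of which, given other agents, the SD was 3.39 and 3.89. Cyp2b10, a target of the receptor CAR, read 6320, 7230, 4470 and 4000 in air and 2820, 2350, 3100 and 1860 with tetrafluoroethylene. Every tetrafluoroethylene array was below every air control, by -1.10 ± 0.48, which did not pass (limma adjusted p = 0.44). The 8 chow and corn oil controls of the run lay at 702 to 3660, a range that held every tetrafluoroethylene array and no air array. With tetrafluororethane Cyp2b10 read 3510, 4690, 5910 and 6050 and overlapped air.

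**Figure D4:**
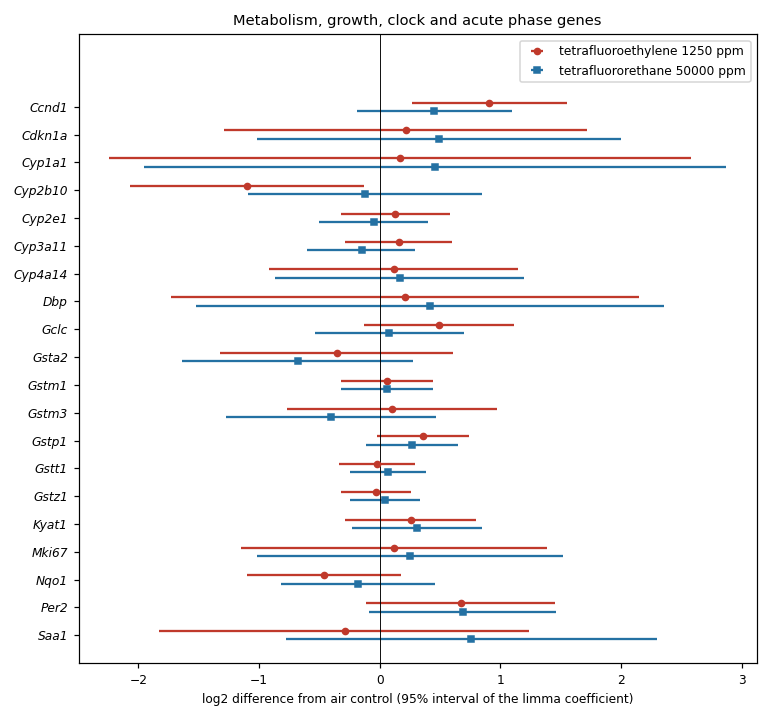
Difference from the air controls (x axis, log2) of 20 genes of xenobiotic metabolism, growth, clock and acute phase for tetrafluoroethylene (red circles) and tetrafluororethane (blue squares), with bars for the 95% interval of the limma coefficient (4 arrays a group). The intervals are narrow for Gstt1, Gstz1 and Cyp2e1 and wide for Cyp1a1, Dbp and Saa1, and none of the 20 genes passed the test with either gas.

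Over the 34 gene lists, with 578 measured genes, 0 members passed with either gas, and the lowest limma adjusted p was 0.17 with tetrafluoroethylene and 0.44 with tetrafluororethane. At an unadjusted p under 0.05 there were 36 higher and 11 lower with tetrafluoroethylene and 9 higher and 17 lower with tetrafluororethane. These were 6.23% and 1.9% of the members, against 5.31% and 4.32% of all probe sets, and 1.56% and 2.94%, against 2.33% and 5.52%. The shares of all probe sets, here and beside the other lists, include dim and unnamed ones, whereas a list holds 1 probe set per gene. A fit of 1 probe set per gene had 1108 of 18193 higher and 795 lower with tetrafluoroethylene. With tetrafluororethane that fit had 487 higher and 961 lower. List medians ran from -0.31 (gluconeogenesis and fasting) to 0.44 (male-biased liver genes) with tetrafluoroethylene and from -0.40 (neutrophil) to 0.16 (erythroid) with tetrafluororethane.

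Genes that differ between male and female liver had the list median furthest from 0 with tetrafluoroethylene, without a call. Of 15 measured male-biased genes 12 were above 0 and 3 had an unadjusted p under 0.05, with a median of 0.44, while with tetrafluororethane 7 were above 0 and the median was -0.05. Over all probe sets 46.4% were above 0 with tetrafluoroethylene and 43.2% with tetrafluororethane, and 5.31% were higher at that threshold with tetrafluoroethylene. Hsd3b5, a steroid dehydrogenase, read 219, 144, 7.87 and 28.4 in air, 645, 594, 266 and 619 with tetrafluoroethylene and 7.12, 216, 172 and 36.3 with tetrafluororethane. All tetrafluoroethylene arrays were above all air controls, with a difference of 2.73 ± 0.92 (limma adjusted p = 0.28), and the tetrafluororethane arrays overlapped air. Cyp7b1, an oxysterol hydroxylase of bile acid synthesis, read 1330, 1380, 560 and 2700 in air and 3010, 5400, 2950 and 2090 with tetrafluoroethylene, overlapping in 1 array (1.28 ± 0.36, adjusted p = 0.18, limma). Slco1a1, an organic anion uptake transporter, read 501, 436, 234 and 121 in air and 422, 1540, 908 and 948 with tetrafluoroethylene, and differed by 1.57 ± 0.67 (limma adjusted p = 0.43). The 8 chow and corn oil controls lay at 496 to 2580 for Hsd3b5, 5780 to 8310 for Cyp7b1 and 1430 to 3440 for Slco1a1. The tetrafluoroethylene arrays were below all of these unexposed controls for Cyp7b1, and below or in the low part of their range for Hsd3b5 and Slco1a1. Probe sets above the median signal were ranked by weight on the main component of variation within the groups of the other 24 arrays. Slco1a1 stood at percentile 0.00888, Hsd3b5 at 1.29 and Cyp7b1 at 28.5. Scores on it were -23.3 to 73.1 in air and -16.5 to 57.8 with tetrafluoroethylene. Its part in the list median was not tested.

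Of 13 measured female-biased genes the median was -0.15 and -0.18. Sult2a2, a hydroxysteroid sulfotransferase, read 474, 4290, 2280 and 17400 in air, 145, 210, 1670 and 80.9 with tetrafluoroethylene and 5590, 1020, 366 and 136 with tetrafluororethane. Its controls alone spanned more than a factor of 10, the groups overlapped, and the differences were -3.46 ± 1.11 (limma adjusted p = 0.25) and -1.99 ± 1.11 (adjusted p = 0.7). On the component of variation within the other 24 arrays its weight stood at percentile 99.9.

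Growth genes were also without a call. Of 24 measured cell cycle genes, 5 were higher at an unadjusted p under 0.05 with tetrafluoroethylene (median 0.14), and 3 higher and 1 lower with tetrafluororethane (median 0.10). Of all probe sets 5.31% were higher at that threshold with tetrafluoroethylene, and 2.33% higher and 5.52% lower with tetrafluororethane. Plk1, a mitotic kinase, read 21.3, 78.9, 67.3 and 28.4 in air, 208, 141, 106 and 115 with tetrafluoroethylene and 134, 63.6, 175 and 66.1 with tetrafluororethane (1.37 ± 0.41 and 0.97 ± 0.41, limma adjusted p = 0.21 and 0.56). Top2a, the topoisomerase of dividing cells, read 98.3, 40.2, 18.8 and 27 in air and 117, 113, 109 and 123 with tetrafluoroethylene (1.25 ± 0.45, limma adjusted p = 0.32), but Mki67, a marker of cycling cells, spread from 6.41 to 87.5 within that group (0.12 ± 0.62). Ccnd1, the G1 cyclin, was lowest in air replicate 4 (845, against 1880 to 2620 in the other controls) and differed by 0.91 ± 0.31 with tetrafluoroethylene (limma adjusted p = 0.29), and by 0.57 without that array (adjusted p = 0.31). Cdkn1a, the p53-induced cell cycle inhibitor, differed by 0.22 ± 0.74 and 0.49 ± 0.74.

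**Figure D5:**
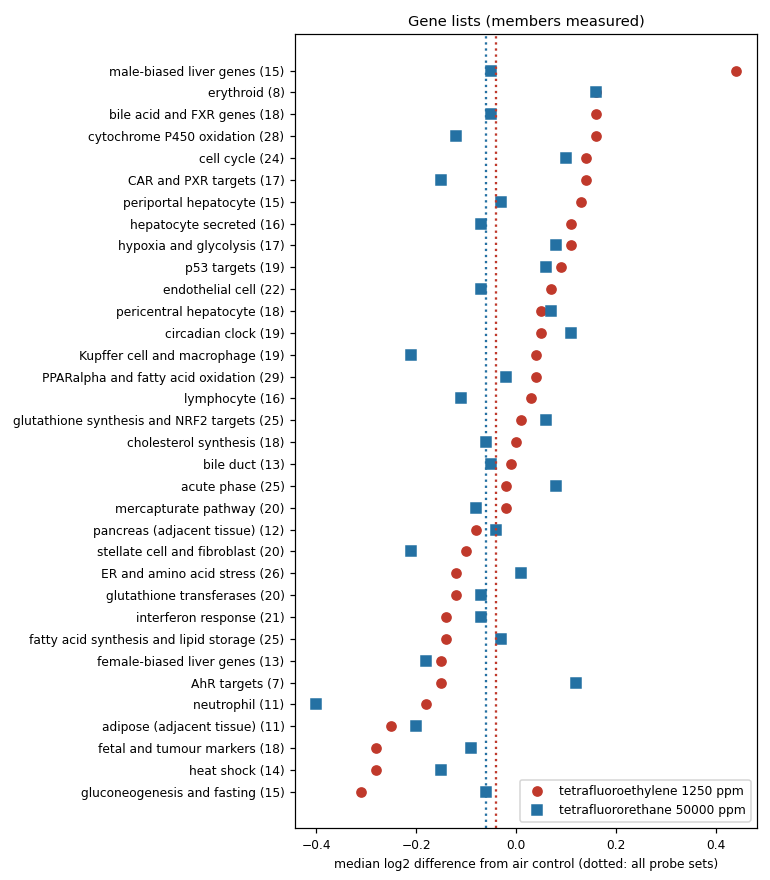
Median log2 difference from the air controls (x axis) over the measured members of each of 34 gene lists (y axis, number of measured members in brackets) for tetrafluoroethylene (red circles) and tetrafluororethane (blue squares); dotted lines mark the medians over all probe sets, -0.04 and -0.06. No list held a called member, and the median furthest from the dotted lines with tetrafluoroethylene is that of the male-biased genes, 0.44.

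Without air replicate 4, members of 17 of the 34 lists passed with tetrafluoroethylene, 25 distinct genes higher and 2 lower of 578, against 3.99% of all probe sets in that fit. None passed with tetrafluororethane, where 0.0244% of all probe sets did (at an unadjusted p under 0.05, 18 list entries were higher and 15 lower, a gene counted once per list). The list of bile acid and FXR genes held 5 of the higher genes among 18 measured: Cyp7b1 (1.63), the bile acid uptake transporter Slc10a1 (0.94), the co-receptor Klb (0.81), the bile acid receptor Nr1h4 (0.75) and the conjugating enzyme Baat (0.60). Among the others were the fatty acid oxidation enzymes Acadl (0.83) and Ehhadh (0.94), the retinaldehyde dehydrogenase Aldh1a1 (0.91), Cyp2c38 (0.97), the replication clamp Pcna (0.82), the glutamine synthetase Glul (0.67) and Nfe2l2 (0.83), which encodes NRF2. In 23 of the 25 higher genes (all but Glul and Mest), and in 1403 of the 1454 higher probe sets of that fit, air replicate 4 was itself the highest control. In 12 of the 25, among them Baat, Klb, Nr1h4, Cyp2c38, Nfe2l2 and Pigr, and in 552 of the 1454 it exceeded every tetrafluoroethylene array. Nfe2l2 read 957, 932, 968 and 2630 in air and 1550, 1890, 1820 and 1590 with tetrafluoroethylene. Pigr, the immunoglobulin receptor of hepatocyte bile transport, read 10700, 7480, 6340 and 27400 in air and 17600, 25200, 19200 and 19100 with tetrafluoroethylene, the same order. Its difference was 0.88 ± 0.29 with all controls (limma adjusted p = 0.26) and 1.33 without replicate 4 (adjusted p = 0.0010).

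Marker lists of other cell types had 0 called members. Endothelial markers summed to 27300 to 31900 in air, 27400 to 36200 with tetrafluoroethylene and 27900 to 29100 with tetrafluororethane, and Kupffer cell and macrophage markers to 26700 to 38100, 24300 to 43200 and 24400 to 31600. Lymphocyte markers summed to 1110 to 1930, 1150 to 1690 and 995 to 1630, and neutrophil markers to 646 to 1360, 699 to 1210 and 721 to 1110. Hepatocyte secreted products, which define the tissue, summed to 816000 to 1080000, 888000 to 1200000 and 795000 to 1100000. The groups overlapped in each of these sums. Stellate cell and fibroblast markers overlapped less, at 26100 to 31900, 24100 to 27100 and 20900 to 28000. Bile duct markers summed to 1410 to 1770, 1330 to 1410 and 1330 to 1650, so air and tetrafluoroethylene met only at 1410. Bright genes dominate such sums. With tetrafluororethane 5 of 19 Kupffer cell and macrophage genes were above 0 (43.2% of all probe sets), with a median of -0.21 (-0.06 over all). This was not particular to them. Above 0 were also 1 of 11 neutrophil genes (median -0.40), 6 of 20 stellate cell and fibroblast genes (-0.21) and 2 of 16 hepatocyte secreted genes (-0.07). Endothelial genes had 8 of 22 above 0 (-0.07), lymphocyte genes 8 of 16 (-0.11) and bile duct genes 6 of 13 (-0.05). In whole liver RNA fewer cells of a type and less RNA per cell cannot be told apart.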

How the data were processed

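Values were the deposited probe set signals (linear intensity) of Affymetrix Mouse430_2 arrays, 1 colour, biotin label. Per the submitters' processing notes the software was GCOS 1.0, and other steps are not given in the sources used here. The mean trimmed by 2% at each end was 500 on all 36 arrays of the run, and 64 control probe sets were left out. As pseudocount, the 20th percentile of each array was taken and its median used (15.2). limma 3.58.1 (R 4.3.3) fitted 1 mean per group to all 36 arrays (27 residual degrees of freedom), with eBayes, and was tested on simulated data. The ± values are the SE of its coefficient. Of the probe sets, 34945 had 1 symbol in the annotation, 932 several and 9160 none. List values used the probe set of a gene with the highest mean, and the other probe sets of called genes were given, singly or as a range, for the gas of the call. Of 648 list genes, 70 were not measured by a probe set with a single symbol. Named genes were all called genes, fixed metabolism, growth, clock and acute phase genes, and up to 4 members of a list with the lowest p. The gases, lists and rules were chosen with earlier results of these data known. The labels do not state which controls belong to which gas, and ACO1 was the air control set of the run. The number of arrays, 4 a group, limits the precision. Alternatives changed the normalization, dim probe sets, pseudocount, arrays fitted, weights, control set, covariates and arrays left out.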

Additional observations from a re-analysis of the deposited data

Results flagged for a closer look

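In 17 of 192 groups of 4 values tested, 1 array stood apart from the other 3 by Dixon's gap ratio (at its 95% level). Chance gives about 1 in 20 for independent, normally distributed values. Signals were taken on the linear scale, the same arrays recur, and some genes were chosen by their values. The 2 shares are therefore not strictly comparable. Air control replicate 4 was the highest control for Lman1 (1650, others 629 to 730) and Ywhab (3650, others 1490 to 1590). It also had the highest od260 entry (16.1) and the lowest score, -23.3 against 59.6 to 73.1, on the component taken from within-group deviations of the 24 arrays of the run outside the inhalation groups. Air control replicate 2 was highest for Mki67 (44, others 16.1 to 18.7) and Saa2 (4410, others 735 to 1280).

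Tetrafluoroethylene replicate 1 was highest for Preb (7970, others 5580 to 5790), replicate 3 lowest for Hsd3b5 (266, others 594 to 645) and highest for Sult2a2 (1670, others 80.9 to 210), and replicate 4 highest for Dbp (4760, others 215 to 266). Dbp is a clock output gene with a strong daily rhythm, and replicate 4 was also the highest of the 12 arrays for Per2 (120) and Usp2 (629), 3 of 19 measured clock genes, and the lowest for 2. It was the highest of the 12 in 7.82% of all probe sets, and tetrafluoroethylene replicate 1 was highest for 4 clock genes and air replicate 4 for 3.

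Tetrafluororethane replicate 4 was highest for Saa1 (71200, others 2940 to 5640), Saa2 (69600, others 851 to 2110) and Tagln (784, others 123 to 207). Replicate 2 was highest for Cdkn1a (5260, others 1260 to 1750) and for the median signal of the array (94.8, others 74.5 to 75.4), replicate 1 for Sult2a2 (5590, others 136 to 1020) and replicate 3 for Top2a (98.9, others 10.7 to 18.3).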

How the results depend on the processing

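The count of 19 with tetrafluoroethylene became 132 without dim probe sets, 84 with a pseudocount 4 times higher, 32 with 1 probe set per gene, 308 with array weights, 116 with the component score as a covariate (chosen after seeing the data), 1 with od260 as a covariate and 0 in the fits of 12 arrays (1062 higher and 1150 lower at an unadjusted p under 0.05) or 8 arrays, and ranged from 3 to 1797 with single arrays left out. The count of 4 with tetrafluororethane became 2 after quantile normalisation, 12 without dim probe sets, 9 and 1 with a pseudocount 4 times lower and higher, 0 with array weights (937 higher and 1671 lower at an unadjusted p under 0.05), 0 with od260 as a covariate (1452 and 3346) and 0 in the fits of 12 arrays (560 and 1423) or 8 arrays, and ranged from 1 to 58 with single arrays left out. Each of these counts at an unadjusted p was out of 45037 probe sets. With the chow control set in place of air the counts of calls were 10 and 7020, and with the mean of the 3 control sets of the run 100 and 7087. Quantile normalisation, a lower pseudocount and the Gapdh ratio kept the tetrafluoroethylene count within 1.5 times, and 1 probe set per gene, the Gapdh ratio and the component score kept that with tetrafluororethane. The cause of these changes was not tested, beyond the smaller number of probe sets or arrays in some fits.

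Among 120 differences of named genes and probe sets, those called with air or in another setting turned direction in 41 cases, all with another control set. Of the entries with tetrafluororethane, only Wdcp (1.54) was called against air. The others differed from air by -0.35 (Mgst3) to 0.56 (Ptp4a2), some by about 0 (Ehhadh 0.00, Cpped1 0.02), so their turns reverse no call against air. With the chow control set and tetrafluoroethylene they were Srsf6 (-0.09), Pitpnb (-0.04), Lactb2 (-0.12), Vwa5a (-0.33), Cpped1 (-0.02), Lman1 (-0.66), Cyp20a1 (-0.33), Ptp4a2 (-0.19), Wdcp (-0.06), 1450033_a_at (-0.21) and 1454649_at (-0.07), all log2 differences, and with the mean of the 3 control sets Lman1 (-0.04). With tetrafluororethane and the chow control set they were Srsf6 (-1.02), Pitpnb (-1.09), Lactb2 (-1.08), Vwa5a (-0.98), Cpped1 (-1.11), Lman1 (-1.70), Cyp20a1 (-0.96), Ptp4a2 (-0.90), Wdcp (-0.16), Lsm3 (0.62), Selenof (-0.61), Zfand5 (-1.27), 1454649_at (-0.97), Ywhab (-0.88), Cyp2b10 (1.73), Mgst3 (1.18), Ehhadh (-0.98), Cyp7b1 (-2.30) and Hsd3b5 (-4.66), and with the mean of the 3 control sets Pitpnb (-0.60), Lactb2 (-0.70), Vwa5a (-0.59), Cpped1 (-0.60), Lman1 (-1.08), Zfand5 (-0.78), Mgst3 (0.67), Ehhadh (-0.66), Cyp7b1 (-1.47) and Hsd3b5 (-2.69). In the other settings run, calls were lost or gained with no such turn.

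No paired analysis was possible because the replicate numbers were given in order of accession and the labels pair no mice. Near and under the pseudocount, as for Zfand5 and Ctbs, the signal over background limits how well a fold is known. No trend with dose and no difference between the gases was tested, since each gas was given at 1 dose.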

Other observations

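One mouse of the tetrafluororethane group, replicate 4, carried an acute phase pattern that the group comparison does not show. Of 25 measured acute phase genes 16 had their highest signal of the 12 arrays in this mouse, a count made after its Saa1 value was seen. It was the highest array in 6.34% of all probe sets, and tetrafluoroethylene replicate 2 was highest for 7 of the 25. Besides Saa1 and Saa2, which encode serum amyloid A, the iron-binding lipocalin Lcn2 read 24000 (244 in the lowest and 3590 in the highest of the air arrays, and 407 to 1010 in the other mice of its group). The orosomucoid genes Orm1 and Orm2 read 51700 and 22100, where the rest of the group had 17400 to 24600 and 487 to 951. The metallothioneins Mt1 and Mt2, which bind zinc, read 69500 and 44400. Over the 4 mice the list had a median difference from air of 0.08 and 0 called members, Saa1 differing by 0.76 ± 0.75 (limma adjusted p = 0.87, n = 4 and 4). In air replicate 2 Saa1 was 15200 and Lcn2 3590, the highest of the controls for both.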
